A study of Mus musculus with 32 samples.

Results

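The 32 frontal cortex arrays of this series differed in how much olfactory bulb message they held. The 10 arrays highest in it relative to their own condition and chip (rich) were set against the 10 lowest (poor), 20 of 32 in all. The arrays were chosen by measured values: a score averaged the levels of Pcdh21, Doc2g and Dlx1, 3 genes of olfactory bulb neurons, after each had been centred within the 5 combinations of condition and chip and scaled to an SD of 1. The 12 arrays between the sets are called the middle arrays. Because the same arrays and values made the sets, each rich minus poor difference below is a description and carries no test. Tests were kept for other genes in the middle arrays, for position on the chip, and for treatment, whose mean the centring had taken out of the choice of arrays.

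Each array measured total RNA from the frontal cortex (FCtx) of a single female F1 hybrid of C57BL/6J and FVB/NJ parents. The 20 ethanol-treated mice (named A and a number) could choose 20% ethanol or water for a few hours of the dark phase on each of 20 days, and the 12 controls (C and a number) were matched mice without ethanol. The labels write the cross in 1 direction, whereas the methods name both, so the direction of a mouse's cross was not known. The tissue was the dorsal part of a rostral coronal section from which the olfactory bulbs were said to be absent. Chips 1 and 2 held ethanol-treated mice, chip 4 held controls, and chip 3 held 4 of each.

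The olfactory bulb is the first relay of smell. Axons of olfactory sensory neurons end in its glomeruli on mitral and tufted cells, the glutamatergic output neurons, while granule and periglomerular cells, which are GABAergic and in part dopaminergic, shape their activity. These interneurons are replaced throughout life by neuroblasts that migrate forward from the subventricular zone along the rostral migratory stream, and the bulb lies directly in front of the frontal cortex.

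Scores in the rich set ran from 0.54 to 2.12 (median 0.81) and came from 6 ethanol-treated mice and 4 controls. Scores in the poor set ran from -1.64 to -0.45 (median -1.47), from 7 ethanol-treated mice and 3 controls. A29 had the highest score, 2.12, followed by C59 at 1.42, whereas 6 arrays lay together between -1.64 and -1.41. The sets ended without a gap: C55, the last rich array, scored 0.54 and C62, the first left out, 0.52, while A21 at -0.45 was the last poor array and C56 at -0.32 the first left out. All 4 chips gave arrays to both sets. On chip 3, however, the only rich array was C55, whose score without centring was -0.30. The poor array A46 of the same chip was at 0.13 without centring, so rich and poor are relative to condition and chip. With sets chosen without centring, 7 of the 10 rich and 9 of the 10 poor arrays stayed the same.

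**Figure D1:**
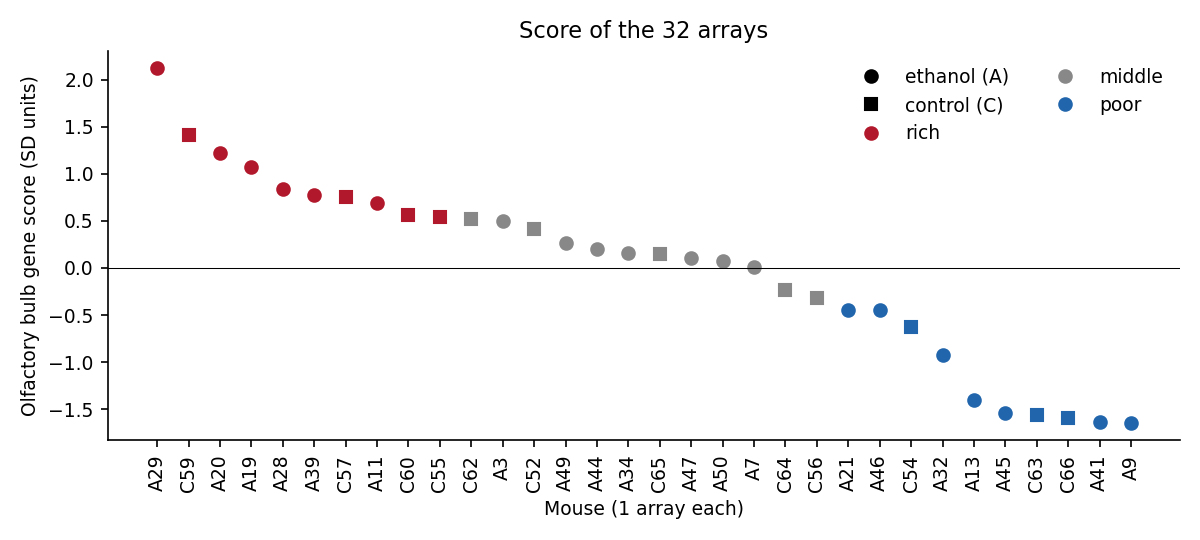
The olfactory bulb gene score (y axis, SD units) of each of the 32 mice, 1 array each, ordered from highest to lowest. Circles are ethanol-treated mice and squares controls. The scores fall gradually from 2.12 to -0.45 and then reach a group of 6 low arrays between -1.64 and -1.41, and both conditions are found in the red rich set and the blue poor set.

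Array quality covered similar ranges in both sets apart from C66, a poor array. C66 had the fewest detected probes of the series, 9480, with 10637 as the next lowest, and the lowest median signal, 146.2. Probes detected per array numbered 10644 to 11544 in the rich set (median 11196.5) and 9480 to 11341 in the poor set (median 10885). The median signal was 156.5 to 192.7 in the rich set and 146.2 to 203.3 in the poor set. These ranges overlapped, and the part of the slightly higher number of detected probes in the differences below was not tested.

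Pcdh21 (Cdhr1 in current naming, chromosome 14) encodes a cadherin of mitral and tufted cells and varied most of the 3 genes of the score. Its log2 level, after quantile normalization, was highest in A29 at 11.62 and lowest in C66 at 7.54. C66, the array with the fewest detected probes, was the 1 array of 32 on which the Pcdh21 probe was not detected. Against the dimmest detected probe of C66, the Pcdh21 level of A29 was at least 14.4-fold higher. In the rich arrays its level ran from 9.66 to 11.62 (median 10.65), and in the poor arrays from 7.54 to 10.25 (median 8.15). Centred values of Pcdh21 did not overlap, with 0.63 as the lowest rich and -0.20 as the highest poor value, and the sets differed by 2.24 on the log2 scale. Doc2g (chromosome 19), which encodes a C2-domain protein of the same output neurons, differed by 1.16. Its probe was detected on 10 rich but only 5 poor arrays, so this size rests in part on values at background, and with a normexp background correction it was 2.43. A29 was at least 3.74-fold above C63, the lowest array, where Doc2g was not detected. Dlx1 (chromosome 2), a homeobox factor of GABAergic interneurons, differed by 0.92, with a range of 3.80-fold over arrays that all detected it. The centred values of the 3 genes followed each other over the 32 arrays, with Pearson r of 0.96 for Doc2g and Pcdh21, 0.91 for Dlx1 and Pcdh21, and 0.92 for Dlx1 and Doc2g. The points of these correlations share array and RNA extract, and since these 3 genes chose the arrays their differences show only how far apart the sets were.

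Among 7923 other genes detected on at least 24 arrays, 87 (1.1%) were at least 1.2-fold higher in the rich arrays and 11 (0.139%) at least 1.2-fold lower. The rule used this contrast, so nothing can be read from these shares beyond their size. The 87 higher genes included 16 at 1.5-fold or more and 3, Calb2, Gng4 and Cacng5, at 2-fold or more, whereas no gene was 1.5-fold lower. The last gene counted as higher was Cacna2d1 with a difference of 0.264, and the first left out was Kctd12 at 0.263. Among lower genes Mag at -0.27 was the last inside and Snrpd3 at -0.26 the first outside. The split depended on scaling: dividing each array by its median gave 342 higher and 0 lower genes, with the median of all genes shifted to 0.10, and a normexp background correction gave 344 higher and 137 lower. All 87 higher genes had differences above 0 in every one of these settings, in the ethanol-treated mice alone and in the controls alone. These settings reused nearly all of the arrays, or a part of them, on which the 87 were picked. A kept sign is therefore not independent support. For 26 genes (0.328%) every rich array lay above every poor array, and for 1 gene (0.0126%), Pvalb, every rich array lay below. A filter that asks for detection on 24 of 32 arrays lets through genes that are present mainly in the rich set. Such genes had to differ, and for S100a5 and Scgn the probe was detected on 10 rich and only 3 poor arrays. In bulk tissue, fewer cells of a type and less RNA per cell cannot be told apart.

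The 2 largest differences besides the score genes, of Calb2 and Gng4, belonged to listed interneuron genes of the bulb. Calb2, which encodes calretinin, a calcium-binding protein of periglomerular and granule cells, ranged from 0.58 to 1.35 in the rich arrays (median 0.73, centred log2 scale) and from -1.68 to -0.09 in the poor arrays (median -1.24). The Calb2 groups did not overlap, and the difference was 1.85 ± 0.20 (SE, n = 10 and 10), or 3.62-fold. The other Calb2 probe differed by 1.40. Gng4, a G protein gamma subunit, ran from 0.15 to 1.09 in rich arrays (median 0.46) and from -0.93 to -0.23 in poor arrays (median -0.61). Its sets were separate as well, by 1.09 ± 0.12. Scgn encodes secretagogin, another calcium-binding protein of bulb interneurons, and lay between 0.03 and 0.65 in rich and between -0.62 and -0.08 in poor arrays. The Scgn difference was 0.70 ± 0.08, but with only 3 poor arrays above background its size depended on the background step, and normexp gave 1.88. Cpne4, a copine, overlapped in its tails, from 0.06 to 0.55 against -0.67 to 0.07, with a difference of 0.63 ± 0.10.

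Of the 20 granule and periglomerular genes listed, 18 were on the array and 9 besides Dlx1 were tested. All 9 were higher in the rich arrays, 7 of them by at least 1.2-fold, against 1.1% of all genes, and 4 without overlap, against 0.328%. Both counts include Scgn, which was at background on most poor arrays. The median difference of the 9 was 0.52, against 0.0025 for all genes. Sp8, a zinc finger factor of bulb interneurons, differed by 0.52 ± 0.07 without overlap. Gad1, which makes GABA, differed by 0.50 ± 0.08, and the homeobox gene Meis2 by 0.38 ± 0.08. Slc32a1, the vesicular GABA transporter, stayed below 1.2-fold at 0.23 ± 0.04, as did Tpbg at 0.12 ± 0.09. Dlx2, the neighbour and partner of Dlx1, did not pass the detection filter, although it was detected on 10 of 10 rich, 8 of 12 middle and 0 of 10 poor arrays. Its log2 level was 7.66 to 8.13 in rich arrays, and in poor arrays it was not detected. Against the dimmest detected probe of each poor array, Dlx2 was at least 1.21-fold higher in the rich arrays. Dlx2 and the dimmer Doc2g probe were the 2 probes of the whole array detected on all rich and no poor arrays, and 0 probes showed the opposite. Doc2g is a gene of the score, so the choice of arrays had largely fixed the result of its probe. Pbx3 was detected on 8 rich and 2 poor arrays.

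Mitral and tufted cell genes followed. Reln encodes reelin, an extracellular protein that mitral cells make and that superficial cortical neurons also secrete. It lay between 0.14 and 0.61 in rich arrays and between -0.56 and -0.03 in poor arrays, a separation of 0.66 ± 0.07. Besides Pcdh21 and Doc2g, 4 of the 13 listed genes of these cells were tested, and all 4 were higher, with a median of 0.32. Of the 4, 3 passed 1.2-fold, against 1.1% of all genes. Nmb, a neuropeptide of tufted cells, differed by 0.33 ± 0.06, and Slc17a6, a vesicular glutamate transporter, by 0.31 ± 0.10. Of the 6 genes of this list that were too dim to test, 3 were detected on more rich than poor arrays and 0 on more poor arrays. For Tbx21 and Shisa3 this was 1 rich against 0 poor arrays. Rich arrays also detected more probes in general (median 11196.5 against 10885), and no share over all dim genes was computed. Eomes, a T-box factor of mitral and tufted cells, was detected on 5 rich and 1 poor array.

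Th encodes tyrosine hydroxylase, the first enzyme of dopamine synthesis, which periglomerular cells use. It ran from -0.05 to 0.50 in the rich arrays and from -0.45 to -0.03 in the poor arrays, a difference of 0.45 ± 0.07 with slight overlap. Ddc, the next enzyme of the pathway, was detected on 9 rich and 5 poor arrays and was not tested, while Gch1, which makes a cofactor of Th, was level at -0.04 ± 0.05. Trh, the precursor of thyrotropin-releasing hormone, ranged from 0.09 to 0.98 in rich arrays (median 0.42) and from -1.14 to 0.11 in poor arrays (median -0.61). A21 gave the widest shift when left out, and the Trh difference of 0.97 ± 0.16 then became 1.05. With normexp it was 1.95, and the probe was detected on 8 poor arrays.

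Dcx (doublecortin, chromosome X), the microtubule protein of migrating neuroblasts, lay between 0.04 and 0.80 in rich and between -0.47 and -0.04 in poor arrays. The Dcx difference was 0.62 ± 0.09 without overlap, 0.99 with normexp, and 0.41 at its other detected probe. Nnat, another gene of young neurons, differed by 0.27 ± 0.09, whereas the cyclin gene Ccnd2 was at 0.09 ± 0.11. Igfbpl1, also of neuroblasts, was detected on 4 rich and 0 poor arrays, although 3 of the 5 neuroblast genes not tested were never detected.

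Genes of the sensory axons gave an uneven picture. S100a5, a calcium-binding protein of olfactory sensory neurons, ranged from -0.26 to 0.78 in rich and from -0.88 to 0.40 in poor arrays and differed by 0.68 ± 0.15, or by 1.84 with normexp. Without A21, the only poor array above 0, it differed by 0.77. Gng13, a G protein subunit of the same neurons, was at -0.04 ± 0.03, and Omp, their defining marker, was detected on 0 of 32 arrays. Of the olfactory ensheathing glia genes, Frzb was at 0.04 and Pmp22 at -0.07, neither at 1.2-fold. The lists of bulb neurons, neuroblasts, olfactory nerve and ensheathing glia held 22 tested genes besides those of the score. Of these, 14 (63.6%) were among the 87 higher genes, against 1.1% of all genes. The count includes Scgn and S100a5, which were at background on most poor arrays. The score genes come from the same lists of bulb neurons, so the 63.6% is a description and no independent support. The 14 genes made up only 16.1% of the 87.

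The other leading genes were in no marker list. Cacng5, an auxiliary subunit of AMPA receptors, lay between 0.10 and 1.03 in rich and between -0.71 and -0.22 in poor arrays, 1.01 ± 0.10 apart, and its other detected probe differed by 0.74. Ptpro, a receptor tyrosine phosphatase, differed by 0.71 ± 0.09 at its brightest probe, but by only 0.255, below 1.2-fold, at its other tested probe. A29 stood above the other rich arrays for the brightest Ptpro probe, and without A29 the difference there was 0.65. Gpsm1, a modulator of G protein signalling, differed by 0.66 ± 0.07 and Pcbp3, an RNA-binding protein, by 0.64 ± 0.09. Meis1, a homeobox factor, overlapped slightly at 0.62 ± 0.09, and its probe was detected on 10 rich and 4 poor arrays. With normexp the Meis1 difference was 1.58. Cbln1, a secreted organizer of synapses, differed by 0.61 ± 0.06 and Spp1, which encodes osteopontin and was detected on 5 poor arrays, by 0.59 ± 0.07 (0.94 and 1.35 with normexp). Of these 15 leading genes, 11 did not overlap between the sets, while Trh, S100a5, Cpne4 and Meis1 did, as the plot of single arrays shows. Over all genes the share without overlap was 0.328%. The 15 were picked for the largest differences in this contrast, so much separation was given in advance. Scgn and Spp1, among the 11, were also at background on many poor arrays.

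**Figure D2:**
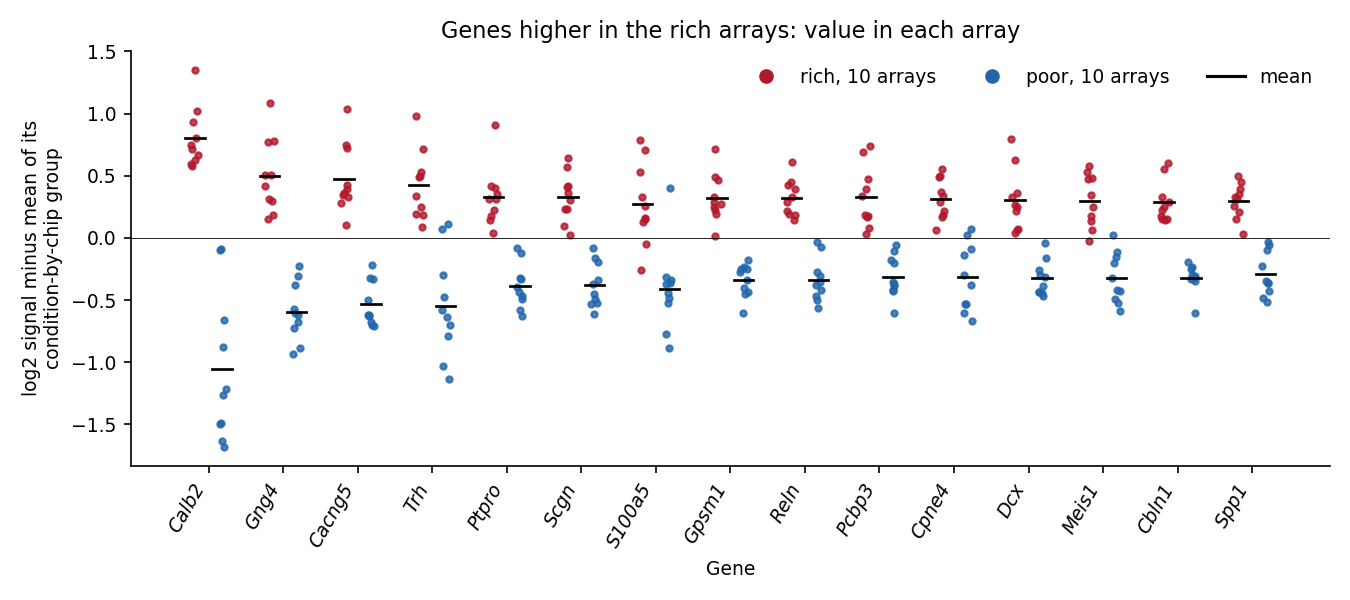
Centred log2 signal (y axis) of the 15 genes with the largest rich minus poor differences, besides the score genes. Each point is 1 array, red for the 10 rich and blue for the 10 poor arrays, and bars are means. Calb2 spans the widest range, from 1.35 down to -1.68, and S100a5 shows 1 poor array, A21, at 0.40.

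Tissue of the cortex itself differed little. None of the 17 tested genes of cortical projection neurons reached 1.2-fold, 12 were below and 5 above 0, and their median was -0.04. That median was above 0 in the controls alone, at 0.09, and with median scaling, at 0.05. Tbr1, a defining factor of these neurons, was at -0.05 ± 0.07, the vesicular glutamate transporter Slc17a7 at -0.07 ± 0.08, and the calmodulin-binding protein Nrgn, lowest of the list, at -0.18 ± 0.04. The tissue thus carried markers of its label, with 17 of the 22 genes on the array detected on at least 24 arrays. Of 7 cortical interneuron genes, 6 were below 0, with a median of -0.07, which was 0.06 with median scaling. Pvalb, which encodes parvalbumin, the calcium buffer of fast-spiking interneurons, lay between -0.30 and -0.01 in rich and between 0.02 and 0.24 in poor arrays. Its difference of -0.26 ± 0.04 was below 1.2-fold although the sets were separate. The 5 tested genes of striatum were all below 0, with a median of -0.04 that was -0.15 in the ethanol-treated mice and 0.07 in the controls, and the dopamine signalling phosphoprotein Ppp1r1b was lowest at -0.23 ± 0.11.

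Differences below 0 were small, and all but that of Pvalb came with overlapping sets. Eef2, a factor of translation elongation, ranged from -0.59 to 0.33 in rich and from -0.21 to 0.60 in poor arrays, a difference of -0.38 ± 0.12 with much overlap. Syt11, a synaptotagmin of vesicle traffic, overlapped almost fully, from -0.66 to 0.51 against -0.32 to 0.51, and its difference was -0.32 ± 0.15. Cacng3, an auxiliary subunit of AMPA receptors related to Cacng5, was at -0.30 ± 0.10, and the neurofilament gene Nefm at -0.29 ± 0.10. The RNA-binding protein Khdrbs3 was at -0.29 ± 0.07, Stmn4, of the stathmin family, at -0.29 ± 0.11, the choline kinase Chka at -0.28 ± 0.11 and the chaperone Hspa8 at -0.28 ± 0.11. Gm484 (now Ntn5) was at -0.27 ± 0.08. Snrpd3, of the spliceosome, Dynll2, a dynein light chain, and the phosphatase Dusp28 lay between -0.26 and -0.25. Only 3 of the 11 genes, Eef2, Syt11 and Khdrbs3, kept a 1.2-fold difference when any single one of the 20 arrays was left out, against 61 of the 87 higher genes. The lower count itself fell to 4 without A29 and to 7 without C57, C63 or A13, and it became 20 without A28, 18 without A46 and 17 without A19.

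**Figure D3:**
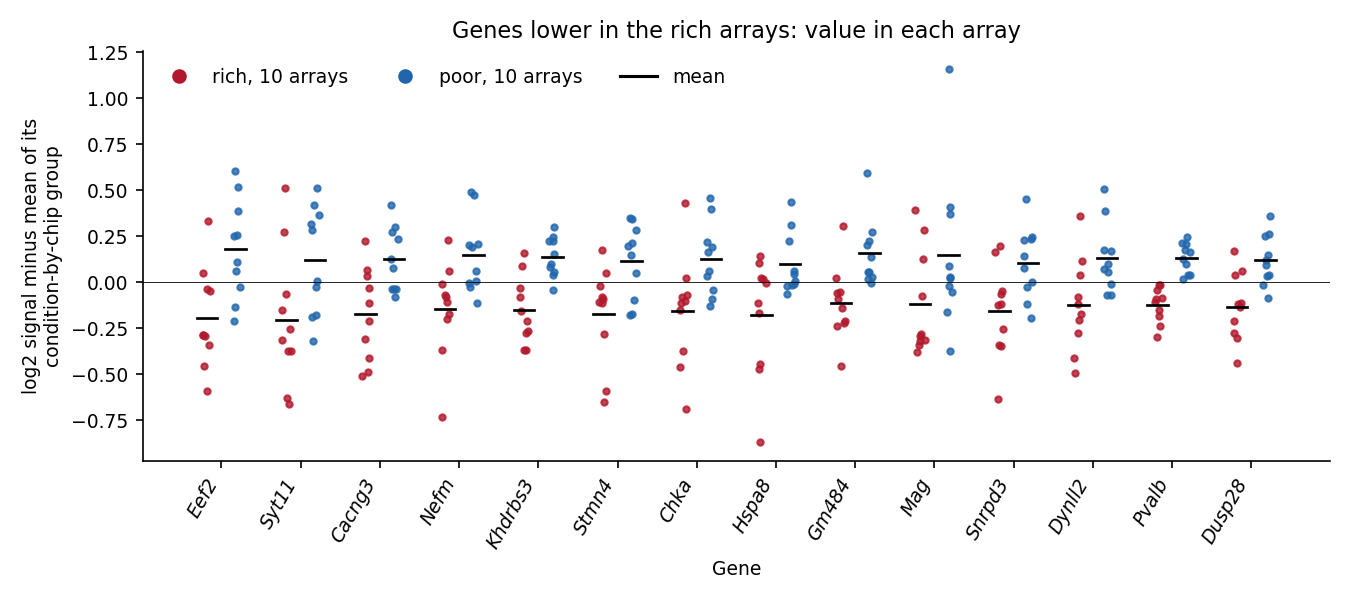
Centred log2 signal (y axis) of 14 of the 15 genes with the largest differences below 0, plotted as for the higher genes. Rich and poor arrays overlap for every gene shown except Pvalb, and the highest poor value of Mag, 1.16, is 1 mouse, A13.

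Mag belonged to the oligodendrocyte genes and its value turned on few arrays. It lay between -0.38 and 0.39 in rich and between -0.37 and 1.16 in poor arrays, a difference of -0.27 ± 0.16, which became -0.16 without A13. In the controls alone Mag differed by 0.08, the opposite way. Of 11 tested myelin genes, each read at its brightest probe, 10 were below 0, with a median of -0.11, and only Mag passed 1.2-fold. That median was -0.21 in the ethanol-treated mice and 0.13 in the controls. The probes of Mbp disagreed in size: its brightest was at -0.03, and its 2 dimmer ones were at -0.33, beyond 1.2-fold, and -0.13. The mean log2 level over the list was 9.91 to 10.73 in the rich and 9.86 to 11.01 in the poor arrays. The part of myelinated tissue in the differences was not tested.

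Some meningeal genes were higher in the rich arrays. All 6 tested of 10 listed were above 0, with a median of 0.25, and 3 passed 1.2-fold, against 1.1% of all genes. These 3 were Dcn, a matrix proteoglycan, at 0.37 ± 0.10, Ogn, a related protein, at 0.33 ± 0.11, and the growth factor Igf2 at 0.27 ± 0.14. Their sets overlapped, and the mean log2 level over the list was 8.98 to 9.60 in rich and 8.72 to 9.56 in poor arrays. Of the 4 meningeal genes not tested, 3 were detected on more rich arrays, but on few: Col1a1 on 3 rich and 0 poor, Col1a2 on 2 and 1, Aldh1a2 on 4 and 1. In the middle arrays, however, 2 of the 6 tested had a positive slope on the score. The part of meninges in the differences was not tested. Among astrocyte genes the water channel Aqp4 was at 0.29 ± 0.15, the only 1 of 11 at 1.2-fold, Gja1 and Slc1a3 were each at 0.21, and the median was -0.01. The 13 microglial genes had a median of -0.01, the 7 of endothelium and pericytes 0.02, the 3 of blood 0.12 and the 8 immediate early genes -0.04. No gene of these last 4 lists reached 1.2-fold. Of the 5 choroid plexus genes 0 passed the detection filter.

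**Figure D4:**
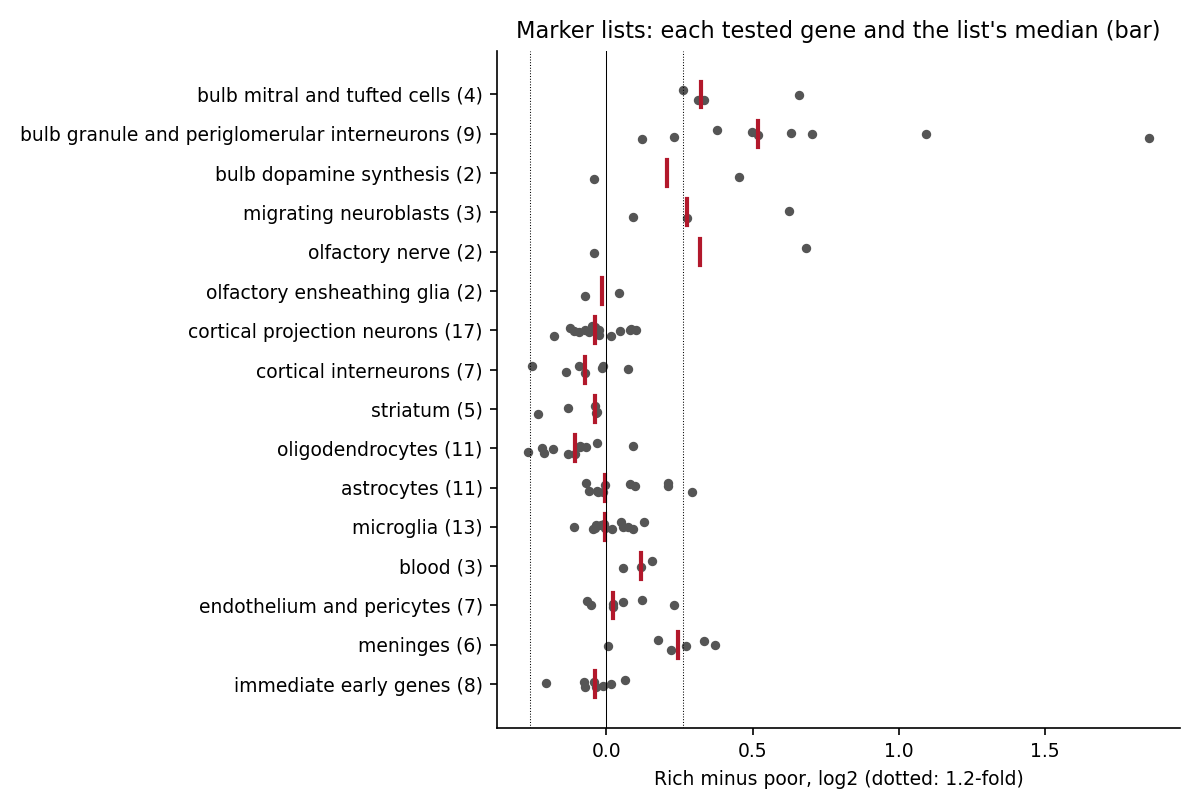
Rich minus poor difference (x axis, log2) of each tested gene (points) in each marker list, with the number tested in brackets and the list's median as a red bar. Dotted lines mark 1.2-fold. Granule and periglomerular genes reach furthest right, with a median of 0.52, while cortical, striatal and microglial genes stay near 0.

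The genes higher in the rich arrays overlapped a gene list from the same mice. From miRNA arrays, not used here, a supplementary table of the study joined single genes to ethanol-responsive miRNAs by their correlation over these animals. From it, the genes of 4 miRNAs were taken for this comparison, with earlier results of these data known: miR-182-5p, miR-183-5p and miR-96-5p, which come from a single cluster and are known from sensory tissues, and miR-429-3p, of the miR-200 family, which is known from olfactory neurons. The mature sequences, from RefSeq (GRCm38.p6), are shown because these 4 define the list, with the seed (bases 2 to 8) in capitals.
mmu-miR-182-5p: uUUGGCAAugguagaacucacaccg
mmu-miR-183-5p: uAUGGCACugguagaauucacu
mmu-miR-96-5p: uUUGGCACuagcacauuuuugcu
mmu-miR-429-3p: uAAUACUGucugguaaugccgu
The first 3 lie on the minus strand of chromosome 6, at chr6:30165962-30165986, chr6:30169711-30169732 and chr6:30169506-30169528, and miR-429-3p at chr4:156053916-156053937, also on the minus strand. No pair of them had the same full seed, but the seed of miR-96-5p differed from that of miR-182-5p only at base 8. It differed from that of miR-183-5p only at base 2.

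Of the genes joined positively to these miRNAs, 128 besides the score genes were tested and all 128 were higher in the rich arrays, against 51.3% of all genes. Their median difference was 0.25, 58 were at least 1.2-fold higher, against 1.1% of all genes, and 18 did not overlap, against 0.328%. These 58 made up 66.7% of the 87 higher genes and 45.3% of the 128. Of the 15 genes with the largest differences, 14 were on the list, all but Ptpro. In the 109 genes that were in no marker list the median was 0.24 and 42 passed 1.2-fold. Of 34 genes joined negatively, 33 were below 0, with a median of -0.12 and none at 1.2-fold. The list was made on RNA of these same mice, and all 3 score genes are in it, so it is not independent evidence of a direction.

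The 12 middle arrays did not enter the rich minus poor differences. They were ranked by the same score, and normalized together with the other arrays, so their slopes are not independent of the 3 score genes. Their scores ran from -0.32 to 0.52. A slope of each gene on the score was fitted with limma, with the condition-by-chip group as a block, and 0 of the 7923 other genes (0.0%) passed an FDR of 10%. Without adjustment 395 genes (4.99%) had a p under 0.05. Calb2 was nearest, with a slope of 0.73 ± 0.14 log2 units per unit of score and an adjusted p of 0.236 by limma. Under median scaling Calb2 was the 1 gene that passed (adjusted p = 0.0971 by limma). In direction, all 15 leading higher genes had a positive slope, as did 62 of the 87 (71.3%), against 51.1% of all genes. The slope was 0.77 ± 0.32 for S100a5, 0.55 ± 0.13 for Cbln1, 0.52 ± 0.15 for Trh and 0.50 ± 0.15 for Dcx, and lowest for Ptpro at 0.08 ± 0.12. Of the 11 lower genes, 3 had a negative slope. Stmn4 had one of 0.45 ± 0.16, opposite to its difference between the sets.

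**Figure D5:**
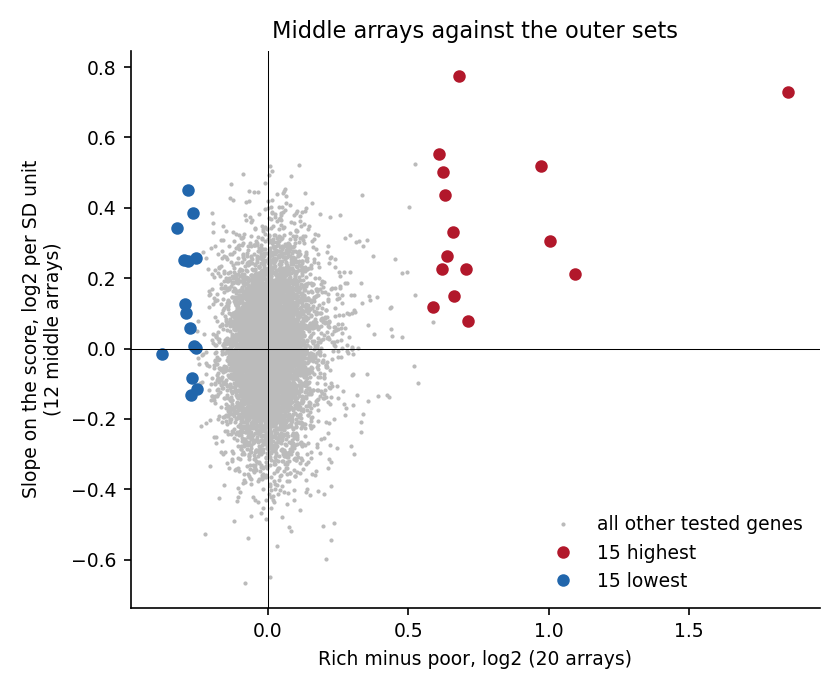
Slope of each gene on the score in the 12 middle arrays (y axis, log2 per SD unit) against its rich minus poor difference in the other 20 arrays (x axis, log2). The 15 highest genes (red) all lie above 0, between 0.08 and 0.77, while 4 of the 15 lowest (blue) lie below 0.

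Position on the chip was a label that the choice of arrays did not use. Chips 1, 2 and 4 held 12 arrays at odd positions (A, C, E, G) and 12 at even ones (B, D, F, H). On every chip the mice at odd positions had lower mouse numbers than those at even positions. Position and the order of mouse numbers therefore cannot be told apart. Over all chips, the rich set had 6 arrays at odd and 4 at even positions, and the poor set 3 and 7. The score averaged 0.42 ± 0.98 (SD, n = 12) at odd and -0.42 ± 1.11 at even positions, a difference of -0.83 (permutation test within chips, two-sided p = 0.0782; 0.117 adjusted over the 3 tests of position and treatment). The difference was 0.22 on chip 1 (exact permutation p = 0.771) and -1.10 on chip 2 (exact p = 0.229). On chip 4 it was -1.63, where the 4 odd arrays, 0.52 to 1.42, all lay above the 4 even ones, -1.60 to 0.14 (exact permutation p = 0.0286, the smallest that 4 against 4 can give; 0.0858 adjusted over the 3 chips). The change of the difference between even and odd positions between chip 4 and the mean of chips 1 and 2 was -1.19 (exact permutation p = 0.231).

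Treatment was compared by the score of uncentred values. It was made from the same 3 probes, but the difference between conditions had been removed by centring before the arrays were chosen. Over all arrays it was 0.17 ± 0.99 (SD, n = 20) in ethanol-treated mice and -0.28 ± 0.93 (n = 12) in controls, a difference of 0.45 that was not beyond the spread between mice (permutation test, two-sided p = 0.206, also after adjustment over the 3 tests). On chip 3, the only chip with both conditions, the 4 ethanol-treated mice scored from 0.13 to 0.80 and the 4 controls from -1.38 to -0.30. The difference there was 1.35 (exact permutation p = 0.0286, the smallest this design allows; 0.0858 adjusted over the 3 tests). Pcdh21 averaged 10.45 ± 0.17 (SD, n = 4) in the ethanol-treated mice of chip 3 and 8.97 ± 0.65 in its controls, Doc2g 8.65 ± 0.26 and 7.88 ± 0.31, and Dlx1 9.84 ± 0.12 and 9.22 ± 0.20, all log2 levels. On this chip every ethanol-treated mouse sat at an odd and every control at an even position, so treatment and position cannot be told apart. Between the 16 ethanol-treated mice of chips 1 and 2 and the 8 controls of chip 4 the difference was 0.10 (permutation p = 0.823), and there treatment and chip cannot be told apart. On chip 3, 78 of the 87 genes higher in the rich arrays (89.7%) averaged higher in ethanol-treated mice, against 51.3% of all genes.

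Genes that differed between ethanol-treated mice and controls were then set beside the 87 genes higher in the rich arrays. By limma at an FDR of 1%, 626 of 7923 genes (7.9%) were called, among them 4 of the 87 (4.6%), which were 0.639% of the 626. Aqp4 was higher by 0.54 ± 0.11 (SE) in ethanol-treated mice (adjusted p = 0.000791 by limma), Dcx by 0.41 ± 0.10 (adjusted p = 0.00519) and Cacna2d1, a calcium channel subunit, by 0.39 ± 0.11 (adjusted p = 0.00987). The matrix protein gene Sparc was lower by 0.34 ± 0.07 (adjusted p = 0.000968 by limma). Cacna2d1 and Sparc are named because the count is small. The Sparc probes disagreed between the sets, at 0.32 and -0.0042. Of the 11 lower genes, Eef2, Hspa8 and Syt11 were called, each higher in ethanol-treated mice, by 0.48, 0.56 and 0.69 (adjusted p = 0.000836, 0.00116 and 0.00015 by limma). With the uncentred score as a covariate 8 of the 87 were called and 646 of all genes, and with chip as a block 0 of the 87 and 16 of all. In direction, 63 of the 87 (72.4%) were higher in ethanol-treated mice, against 46.7% of all genes.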

How the data were processed

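RNA of 32 mice, each an independent animal with 1 array, was measured on Illumina MouseRef-8 v2.0 chips. The authors deposited an intensity table, per the file headers the mean bead signal of each probe, whose values are linear and differ between arrays as unnormalized signals do, and a detection p-value for each probe and array. The other deposited columns, bead errors and bead numbers, were not used. The software and background step behind these intensities are not given in the sources used here; the submitters' processing notes name lumi and limma. The table held 25697 probes (18138 symbols), and its value columns were matched to mice through the labels, with 0 left over. The number of arrays limits the precision.

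Intensities were converted to log2, quantile-normalized with limma 3.58.1 in R 4.3.3, and kept where the detection p-value was below 0.01 on 24 arrays or more (10187 probes, 7926 genes, 7923 without the 3 of the score). A gene with several probes was read at its brightest, and 1748 genes had several that were tested. The study's methods name a variance-stabilizing transform, which was not used here because the score is defined on log2 signals. Values were centred within the 5 condition-by-chip groups. Gene symbols are those of the array design, and the file names no genome build, so no gene coordinates are given. Slopes and the treatment comparison used limma with Benjamini-Hochberg adjustment over all tested probes. Differences in the score used permutation tests with 100000 resamples, or all regroupings on a single chip. Scripts were tested on simulated data. Python 3.11.15, numpy 2.4.6, pandas 2.3.3, scipy 1.17.1 and matplotlib 3.10.9 were used.

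Named genes were the 3 of the score, the 15 largest differences in each direction and the extreme members of each of 17 marker lists; 1 of the genes with the largest differences below 0 is not reported here, and others are named where a count was small or a threshold fell. The arrays, genes and lists were chosen with earlier results of these data known. Alternatives changed the normalization, background, detection filter, centring, number of arrays, score genes and arrays included; the ethanol-only, control-only and leave-one-out settings were added after seeing the data.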

Additional observations from a re-analysis of the deposited data

Results flagged for a closer look

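In 5 of 71 sets of 10 arrays examined, 1 array stood far from the other 9, measured as its gap to the nearest array over the range of the set. Chance alone marks about 1 in 20 such sets. Ptpro in the rich arrays was highest in A29, at 0.91 against 0.04 to 0.41 in the others (ratio 0.567). S100a5 in the poor arrays was highest in A21, at 0.40 against -0.88 to -0.32 (ratio 0.559). Cbln1 in the poor arrays was lowest in C66, at -0.61 against -0.34 to -0.19 (ratio 0.638). Gm484 (0.59 against -0.0027 to 0.27, ratio 0.536) and Mag (1.16 against -0.37 to 0.41, ratio 0.49) in the poor arrays were both highest in A13.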

How the results depend on the processing

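Among the 87 higher genes, every one measured stayed above 0 in all 14 other settings of the contrast. The 11 lower genes stayed below 0 except Mag in the controls alone (0.079). Most arrays were shared with the main sets, and in several settings all were. The genes had been picked on those arrays, so a kept sign was largely given in advance. Sizes moved more: with normexp the differences of Doc2g, Trh, Scgn, S100a5, Dcx, Meis1, Cbln1 and Spp1 grew over 1.5 times, to between 0.94 and 2.43, and the olfactory nerve median from 0.32 to 0.90, and with median scaling most lower genes shrank, Mag to -0.13. Centred also by position, Hspa8 was at -0.02. At 1.2-fold, higher genes numbered 342 with median scaling, 344 with normexp, 215 with 5 against 5 arrays, 36 with 16 against 16 and 297 in the controls alone, where only 4 and 3 arrays were compared. Lower genes numbered 0, 137, 67, 1 and 147 in the same order, 3 when values were also centred within odd or even positions and 24 in the ethanol-treated mice alone. Higher genes without overlap numbered 183 with 5 against 5 arrays, 0 with 16 against 16, 68 in ethanol-treated mice and 592 in controls. Lower genes without overlap numbered 95, 0, 10 and 495 in the same order, 0 with median scaling, normexp, no centring, centring by position or a score without Dlx1, and 2 with a score without Pcdh21 or without C66. With fewer arrays compared, separation is reached more easily. Leaving out each of the 20 arrays gave 69 to 100 higher and 4 to 20 lower genes, and 26 to 37 higher and 1 to 2 lower without overlap. Without C66 and with the sets chosen again, the counts at 1.2-fold were 84 and 13. The median of the olfactory nerve genes turned to -0.043 among genes detected on all 32 arrays, where S100a5 drops out, and to -0.020 over all probes, where undetected genes enter. In the middle arrays limma called 1 gene, Calb2, with median scaling, and 0 with normexp or with centred values and no block, where 488 and 547 genes had an unadjusted p under 0.05. Genes higher in the rich arrays and called for ethanol numbered 8 with the score as a covariate, 0 with chip as a block and 11 of 344 with normexp. The chip 3 difference stayed between 1.16 and 1.52 without any 1 mouse, where its exact p, already the smallest possible, cannot show stability. The other 2 score differences stayed between -0.87 and -0.80 by position and between 0.44 and 0.50 by treatment. Except where stated, the cause was not tested. No paired analysis was possible because the mice of the 2 conditions share no replicate numbers. A detection level near background limits Doc2g, Scgn, S100a5, Meis1 and Spp1, each detected on 3 to 5 of the poor arrays.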

Other observations

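The genes here were chosen after their values were seen. Hap1, the huntingtin-associated protein, differed by 0.48 without overlap at its brightest probe and by 0.02 at its other detected probe. Mtap1b (now Map1b) differed by 0.43 at its brightest probe, with wide overlap, and by -0.06 and -0.12 at its other detected probes. Rcan3, Samd14, Acss1, Fxyd6 and Zfyve26 were higher in every rich than in every poor array although their differences, 0.14 to 0.26, were below 1.2-fold. The pericyte-related gene Vtn differed by 0.23 and the microglial receptor gene P2ry12 by 0.13, each below 1.2-fold. A13, the poor mouse with the highest Mag value, also held the highest poor values of Mal and Mobp, 2 other myelin genes, and of Ppp1r1b of the striatum.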
